A study of Solanum lycopersicum with 18 samples.

Results

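The regions described here are wide H3K27me3 domains called in wild-type tomato shoot apices, with no call shared by both replicates of the *crel-2* mutant. They were selected on the called peaks themselves. The interval that the peaks of both wild-type replicates shared, by at least 1 bp, was taken as a wild-type region, and *crel-2* regions were formed in the same way. A wild-type region on chromosomes 1 to 12 was a member if it spanned 4000 bp or more and had no base in a *crel-2* region. Of 4285 wild-type regions of that width, 1207 were members and are called lost domains, and the other 3078 overlapped a *crel-2* region and are called kept domains. The lost share was 28.2%, against 66.5% of the 10931 narrower wild-type regions and 55.7% of all 15216 wild-type regions on the 12 chromosomes. These shares follow from the rule and carry no test.

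H3K27me3, trimethylation of lysine 27 of histone H3, is the mark that Polycomb Repressive Complex 2 (PRC2) places on chromatin. It covers genes that are held silent in a given tissue, and in plants it typically spreads over the body of a gene, so that one domain can cover a gene or several neighbouring genes. VIL proteins carry a PHD finger and associate with PRC2, and in Arabidopsis they are best known for the silencing of the flowering repressor FLC. *CREL* (*CRAWLING ELEPHANT*) encodes a tomato VIL protein related to Arabidopsis VRN5. Tomato chromosomes have gene-rich outer parts and a long gene-poor interior of pericentromeric heterochromatin.

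Chromatin came from apices with about 3 expanding leaves, harvested 28 days after germination from wild-type cv M82 and from *crel-2*, a fast-neutron allele in which part of *CREL* is deleted. The labels say only crel mutant, and the allele is taken from the study's methods. There were 2 replicates for each genotype, each made from pooled apices of many cell types, and 1 mutant line. The files hold only the start and end of each called peak. The 4 lists had 17718 and 16098 peaks on the 12 chromosomes in wild type and 8734 and 8914 in *crel-2*, and between 3328 and 4815 of these spanned at least 4000 bp. Height and read depth behind a peak are unknown, so a missing peak means that no enrichment was called, not that the mark was absent, and stretches without the mark cannot be told apart from stretches missing in the mutant genome. All positions are on SL2.40, the build named in the lists. No annotation or sequence of that build was used here, so the genes under the domains are not named and no sequence is shown.

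The lost domains covered 7.93 Mb, which is 23.1% of the 34.4 Mb in wide wild-type domains. They made up 14.2% of all lost regions by number and 44.9% of the bases in them. The median width was 5539 bp, with the central 50% of domains between 4643 and 7324 bp and the widest at 27351 bp. Kept domains were wider, with a median of 7017 bp. At the threshold the values were continuous. The narrowest members spanned 4001, 4003 and 4005 bp, on chromosomes 6, 3 and 4. The widest lost regions that were not members spanned 3997, 3989 and 3989 bp, on chromosomes 2, 10 and 12.

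The share of domains that were lost fell from each width class to the next wider one. Of domains of 4000 to under 5000 bp, 447 of 1092 were lost, or 40.9% (95% Wilson interval 38.1 to 43.9, for counting error only). Of those of 6000 to under 8000 bp, 259 of 981 were lost, or 26.4% (23.7 to 29.2). Of those of 12000 bp or more, 73 of 593 were lost, or 12.3% (9.91 to 15.2). Single lists were compared as well, a wild-type list with a *crel-2* list. The 4 pairings gave between 39.5% and 41.8% in the narrowest class and between 10.9% and 11.9% in the widest. These pairings reuse the same 4 lists and are no independent support. Width and overlap are the quantities the rule used, and a wider domain has more bases that can touch a *crel-2* region, so the decrease is a description and no effect of width is drawn from it.

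**Figure D1:**
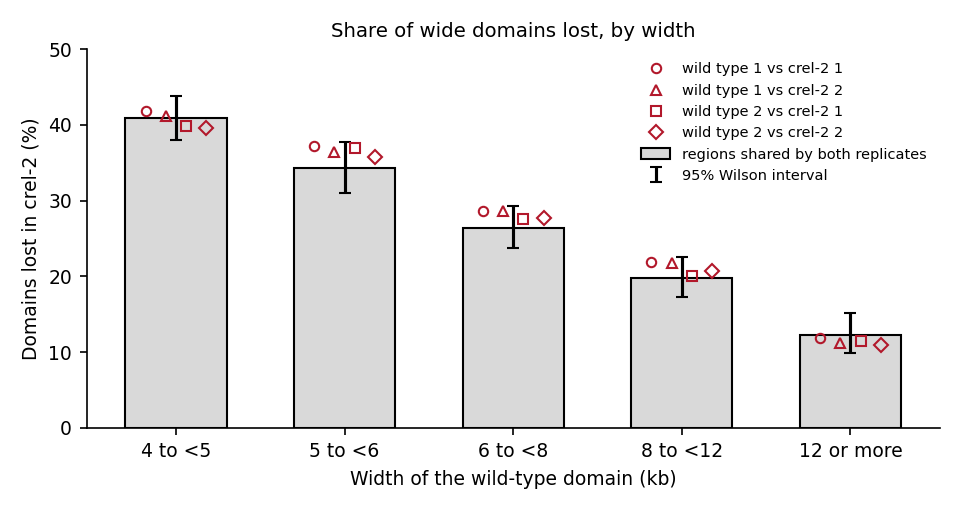
Share of wide wild-type H3K27me3 domains lost in *crel-2* (%, y axis) by domain width (kb, x axis). Bars are regions shared by both replicates with 95% Wilson intervals, and symbols are the 4 pairings of a single wild-type with a single *crel-2* peak list. The bars fall from 40.9% to 12.3%, and the symbols fall in the same order.

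Domains were mostly lost outright or kept nearly whole. Besides the 1207 domains with no base in a *crel-2* region, 60 kept domains had under 10% of their width in one, and 100 had 10% to under 25%. At the other end, 1675 kept domains lay entirely inside *crel-2* regions and 636 had 90% to under 100% of their width there. In between, 158 had 25% to under 50%, 216 had 50% to under 75% and 233 had 75% to under 90%. The kept domains with the fewest bases left were on chromosome 5 from 10730275 to 10735905, with 112 of 5631 bp in a *crel-2* region, on chromosome 7 from 3265096 to 3270561 with 124 of 5466 bp, and on chromosome 1 from 62226810 to 62231158 with 127 of 4349 bp.

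**Figure D2:**
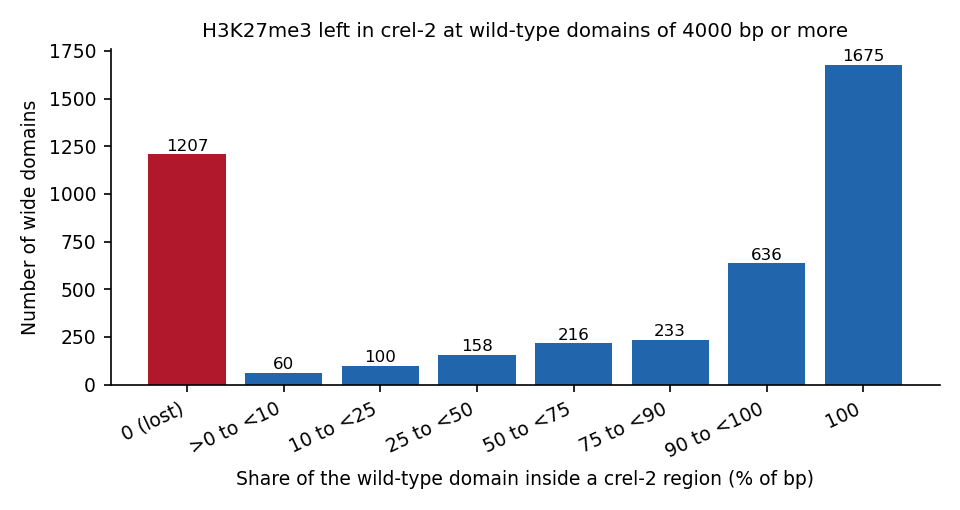
Number of wide wild-type domains (y axis) by the share of their width that lay inside a *crel-2* region (% of bp, x axis, classes of unequal width). The lost domains form the bar of 1207 at 0, which is followed by only 60 domains with under 10% left, and 1675 domains lie wholly inside *crel-2* regions.

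The rule asked only that the *crel-2* lists share no base in a domain, so each list could still hold peaks there. The values of each list are given as a description, since both lists chose the members. Peaks of *crel-2* replicate 1 covered 0.837% of the bases in lost domains, and those of replicate 2 covered 0.923%. The same lists covered 90.2% and 91.5% of the bases in kept domains. Of the 1207 members, 1071 had no peak in either *crel-2* list, or 88.7%. A peak was present in replicate 1 alone at 58 members and in replicate 2 alone at 67, and at 11 members both lists had peaks that shared no base. These peaks were small. In replicate 1, 58 of the 90 overlapping peaks had the width of 501 bp that is the narrowest in that list, and the median width in replicate 2 was 627 bp. Nearly all lay inside the domain, with 5 of 90 and 1 of 98 reaching over an end.

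At 3 members a single *crel-2* list covered more than 50% of the domain. On chromosome 5 from 30193100 to 30197417, a domain of 4318 bp, wild-type replicates 1 and 2 had peaks of 4664 and 4335 bp, *crel-2* replicate 1 had none and replicate 2 covered 74.8%. On chromosome 1 from 77552131 to 77558710, *crel-2* replicate 1 covered 68.5% of the 6580 bp and replicate 2 nothing. On chromosome 11 from 4335252 to 4341119, *crel-2* replicate 1 covered 58.3% of the 5868 bp in 3 pieces and replicate 2 nothing. The *crel-2* replicates disagreed at these domains, and they are members because the rule asked for both lists.

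Both wild-type lists chose the domains, and how well they matched at the ends is given as a description. In the median lost domain the shared interval made up 91.0% of the span that the 2 wild-type peaks covered together, and in the median kept domain 93.2%. Both ends lay within 500 bp of each other in the replicates at 674 lost domains, or 55.8%, and at 58.4% of kept domains. The shared interval reached 80% of the joint span at 75.8% of lost domains and at 84.2% of kept domains. By width, the medians of this agreement were 88.1% for lost and 88.9% for kept domains of 4000 to under 5000 bp, and 96.6% and 97.0% at 12000 bp or more. At 941 lost domains, or 78.0%, neither wild-type peak held a second shared interval, and the same was true of 82.4% of kept domains. At 20 members a wild-type peak ran on into a *crel-2* region outside the shared interval.

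The widest lost domain lay on chromosome 1. There wild-type replicate 1 had a peak from 70780075 to 70807714 and replicate 2 from 70780223 to 70807573, so that their ends differed by 148 and 141 bp over 27351 shared bp. Neither *crel-2* list had a base there, and the nearest *crel-2* region lay 8263 bp away. On chromosome 10, the peaks ran from 52781214 to 52804494 in replicate 1 and from 52781498 to 52804543 in replicate 2, with 22997 bp in common and the nearest *crel-2* region at 130305 bp. On chromosome 7, the shared interval from 7617518 to 7639604 spanned 22087 bp, and the left ends differed by 1368 bp. All 3 domains were covered in full in each wild-type list and empty in each *crel-2* list.

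The next widest members were also empty in each *crel-2* list, with 1 exception. A domain of 21636 bp on chromosome 5 (2180984 to 2202619), one of 21273 bp on chromosome 7 (2161501 to 2182773), one of 21059 bp on chromosome 2 (34724621 to 34745679) and one of 20044 bp on chromosome 9 (62820483 to 62840526) had no peak in either *crel-2* list. So had a domain of 18515 bp on chromosome 1 (78210921 to 78229435) and one of 18169 bp on chromosome 9 (59491875 to 59510043). The exception was the domain of 18014 bp on chromosome 6 (2243187 to 2261200), where *crel-2* replicate 1 had 3 peaks over 1912 bp, or 10.6% of it, and replicate 2 had none. The left ends of its wild-type peaks differed by 4881 bp. The domain on chromosome 2 lay 2918 bp from a *crel-2* region, whereas that of 18515 bp on chromosome 1 was 483982 bp away from the nearest.

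On the remaining chromosomes the widest member was narrower. It spanned 16199 bp on chromosome 3 (7419272 to 7435470), 15350 bp on chromosome 4 (59365062 to 59380411) and 17120 bp on chromosome 8 (2423798 to 2440917), each with no peak in either *crel-2* list. On chromosome 11 (3982758 to 3996775) it spanned 14018 bp, and both *crel-2* lists had a peak of 501 bp in it without a base in common. On chromosome 12 (63966153 to 63984086) it spanned 17934 bp, of which 627 bp lay in a peak of *crel-2* replicate 2. Of the widest members of the 12 chromosomes, only that of chromosome 2, at 69.6% of the span, lay in the central 50%.

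Called peaks were more frequent around lost domains in wild type than in *crel-2*. The share of domain edges with a called peak was followed outwards from both ends. At 5 kb from the edge of a lost domain, 22.9% of positions were in a peak of wild-type replicate 1 and 21.2% in one of replicate 2. At the same distance 2.03% were in a peak of *crel-2* replicate 1 and 2.44% in one of replicate 2. At 20 kb the wild-type values were 18.4% and 18.3%, and the *crel-2* values were 4.93% and 5.22%. Values close to an edge are set by the rule, which places the edge at the end of a wild-type interval. Around kept domains the *crel-2* values were the higher ones at 5 kb, with 26.3% and 27.9% against 24.4% and 23.9% in wild type. There the lists were close to each other at 20 kb, with 21.7% and 20.8% in wild type and 21.0% and 22.1% in *crel-2*. In both genotypes the replicates differed far less from each other than the genotypes did around lost domains.

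**Figure D3:**
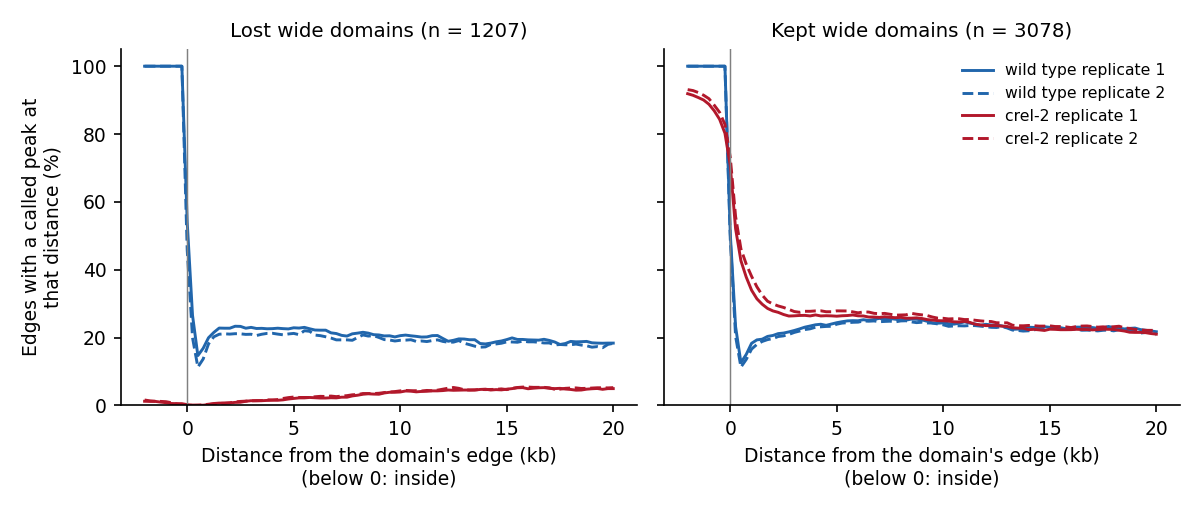
Share of domain edges (%, y axis) with a called peak at a given distance from the edge (kb, x axis, negative values inside the domain), for lost (left) and kept (right) domains in each of the 4 peak lists. Values inside follow from the rule. From 1 kb outside lost domains the wild-type lines lie between 17.0% and 23.3%, and the *crel-2* lines reach 4.93% and 5.22% at 20 kb, and outside kept domains the 4 lines meet by 20 kb.

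Because the outside of a domain is not part of the rule but belongs to the same contrast, the state of other wild-type regions is given as a description. Among the 1201 lost domains with a wild-type region on either side, both neighbours were also lost at 842, or 70.1%, 1 neighbour was lost at 314 and neither at 45. Among 3074 kept domains both neighbours were lost at 433, or 14.1%. Taken singly, 83.2% of the neighbours of lost domains and 30.1% of those of kept domains were lost, beside the 55.7% of all wild-type regions.

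Peaks that lie close together can be parts of one stretch of the mark, so the same was counted by distance. Of the 327 wild-type regions under 1 kb from a lost domain 93.0% were lost, and of the 810 regions under 1 kb from a kept domain 19.4% were. At 20 to under 50 kb the shares were 77.5% and 41.0%, and at 200 to under 500 kb they were 68.7% and 55.2%. A region counts once for each domain it lies near. In each of these distance classes the share was higher around lost than around kept domains on 12 of 12 chromosomes. Outside the central 50% of the chromosomes the shares at 20 to under 50 kb were 78.0% and 47.4%, and inside it they were 74.4% and 24.6%, so the contrast was present in both parts. It was less regular at long range. At 200 to under 500 kb the share was higher around lost domains on 11 of 12 chromosomes outside the central 50% and on 7 of 12 inside it.

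**Figure D4:**
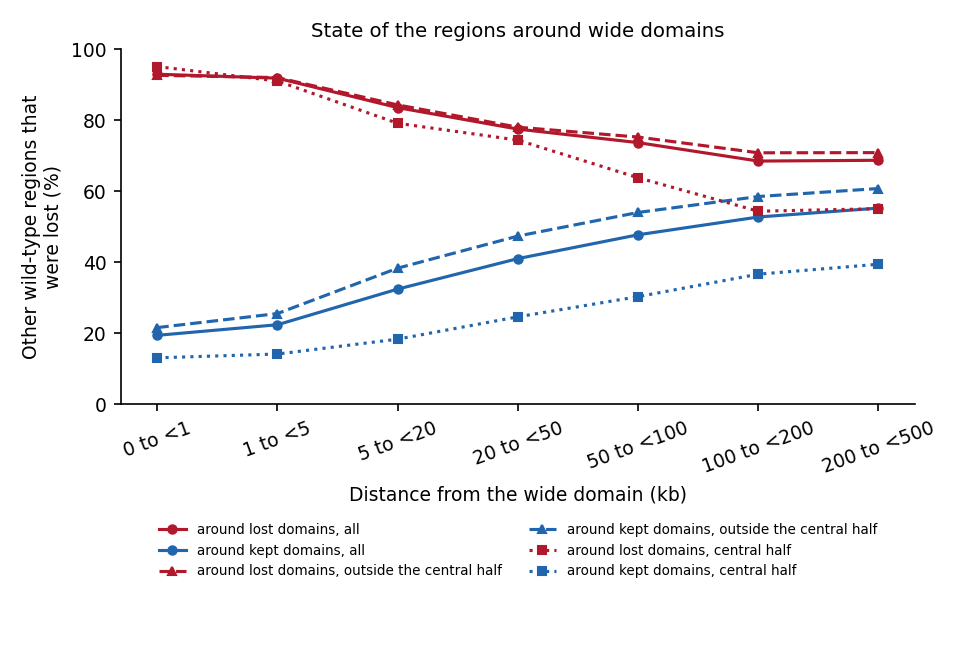
Share of other wild-type H3K27me3 regions that were lost in *crel-2* (%, y axis) by their distance from a wide domain (kb, x axis, classes of unequal width), around lost (red) and kept (blue) domains, for all domains and for those outside and inside the central 50% of the chromosome. Around lost domains the share falls from 93.0% to 68.7% with distance, and around kept domains it rises from 19.4% to 55.2%.

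Lost domains came in groups. When wide domains were read in order along each chromosome, 878 of the 1207 members, or 72.7%, had another member as the next wide domain on at least 1 side. The same was true of 995 of the 3078 kept domains, or 32.3%, and of 43.7% of all wide domains, of which 28.2% were lost. The longest run held 13 consecutive lost domains on chromosome 6, between 33574803 and 33915064. They spanned 4373 to 9226 bp and covered 78986 of the 340262 bp. The 12 narrower wild-type regions among them were also lost, and no *crel-2* region lay in the stretch. Its only *crel-2* peak was one of 501 bp in replicate 1, in the last domain of the run, and replicate 2 had none. The domains of 5281 and 5306 bp in this run lay in the same peak of 11697 bp in wild-type replicate 2. Pieces of the same peak thus count as separate domains, in the runs and in the share of 72.7%.

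The next longest runs held 11 domains each. On chromosome 2 from 41238608 to 41756346, the domains spanned 4048 to 7665 bp, and all 18 narrower regions among them were lost as well. On chromosome 1 from 75530259 to 76284411, the 11 domains of 4236 to 11201 bp covered 78959 bp, and all 25 narrower regions between them were lost. In either stretch each *crel-2* list had 1 peak and the lists shared none. The first 2 domains of the run on chromosome 1, of 10807 and 11201 bp, lay from 75530259 to 75541065 and from 75541827 to 75553027, and their peaks spanned 10978 and 11535 bp in wild-type replicate 1 and 10807 and 11432 bp in replicate 2.

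Members were also counted in fixed windows of 1 Mb. The window with most members was that of chromosome 6 from 33000001 to 34000000, with 19 of its 26 wide domains lost. It was followed by windows on chromosome 2 from 47000001 (15 of 19 lost) and on chromosome 1 from 76000001 (14 of 23 lost). Of 618 windows with a wide domain, 343 had at least 1 member, and the 93 windows with 5 or more held 677 members. Of all wide domains 28.2% were lost. Windows also differ in how many wide domains they hold, and kept domains were not counted in the same way. These counts therefore do not show by themselves that members group.

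Members were found on every chromosome. Their number ranged from 55 on chromosome 12 to 165 on chromosome 2, and the share of wide domains that were lost ranged from 20.4% on chromosome 12 (95% Wilson interval 16.0 to 25.6) to 37.8% on chromosome 2 (33.3 to 42.4). On the other 10 chromosomes it lay between 21.7% and 31.2%. The median width of lost domains was below that of kept domains on each of the 12 chromosomes, for example 6142 against 6512 bp on chromosome 7 and 5458 against 7916 bp on chromosome 2.

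The position of a domain is not used by the rule and was compared between lost and kept domains over chromosomes. Each chromosome was measured from its first base to the last base in any peak. In the central 50% of this span lay 18.0% of lost domains and 34.9% of kept domains. On each of the 12 chromosomes the lost domains had the lower share, with differences of -31.7 to -7.55 percentage points (exact sign test over chromosomes, two-sided, p = 0.000488, the smallest that 12 chromosomes allow, and 0.000977 after Benjamini-Hochberg adjustment over 2 tests). On chromosome 1 the central 50% held 9.66% of lost and 41.0% of kept domains. On chromosome 2 it held 36.4% and 68.0%, and on chromosome 9 3.49% and 11.4%. Lost domains are narrower than kept ones, but among domains of 4000 to under 8000 bp the shares were 19.7% and 39.4%, and at 8000 bp or more they were 11.4% and 28.1%.

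With both chromosome ends pooled, the lost share fell from each 10% zone of the span to the next one inwards. In the outermost 10% of the span at either end 576 of 1460 wide domains were lost, or 39.5% (95% Wilson interval 37.0 to 42.0). From 20% to 30% of the span it was 19.6% (17.0 to 22.6), and in the innermost zone, from 40% to 50%, 41 of 361 were lost, or 11.4% (8.48 to 15.05). The same order was seen within width classes. In the outermost zone 54.8% of domains of 4000 to under 6000 bp were lost and in the innermost 17.1%, and for domains of 12000 bp or more the shares were 16.1% and 3.33%. The outermost zone held 47.7% of the lost and 28.7% of the kept domains. With the ends taken apart, the change was uneven. The first 5% of the span held 136 lost and 206 kept domains, and the last 5% held 187 and 217. From 20% to 25% of the span, measured from the first base, there were 4 and 96. At the same distance from the other end, from 75% to 80%, there were 65 and 251. From 45% to 50% there were 14 and 97.

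**Figure D5:**
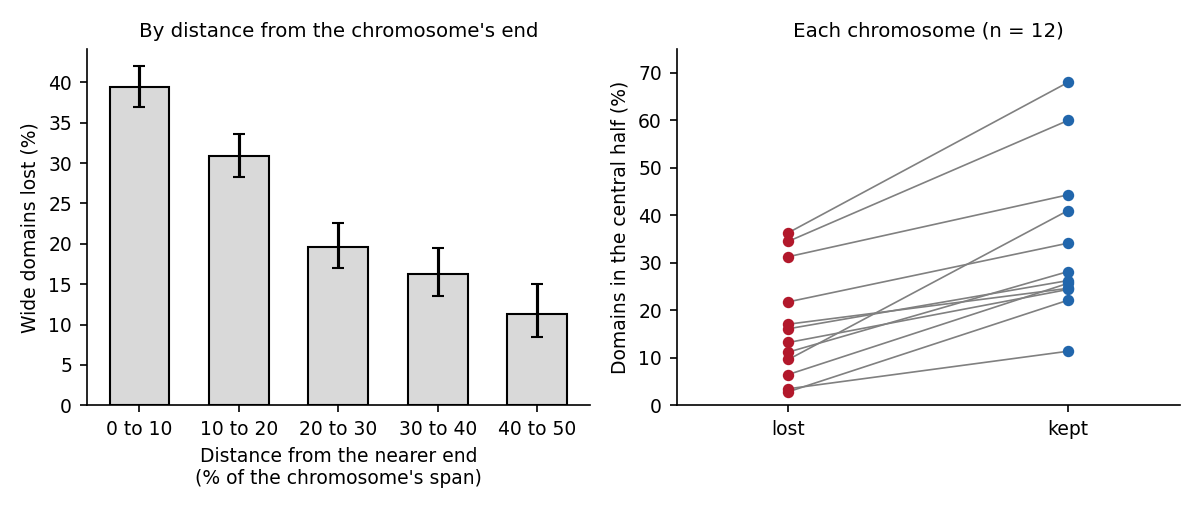
Left, share of wide domains lost in *crel-2* (%, y axis) by distance from the nearer chromosome end (% of span, x axis), with 95% Wilson intervals. Right, share of lost and of kept domains in the central 50% of each of the 12 chromosomes (%, y axis, 1 line per chromosome), which is lower for lost domains on all 12.

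Lost domains had slightly more wild-type regions around them. The count itself uses the wild-type lists only. It is not independent of the rule, because the same lists formed the domains and the *crel-2* lists split them into lost and kept. Within 50 kb of the edges there were on average 5.30 other wild-type regions for lost domains and 4.81 for kept domains, and 10 of 12 chromosomes had the higher mean for lost domains (exact sign test, two-sided, p = 0.0386, and 0.0386 after adjustment). Chromosomes 2 and 6 were the exceptions. This difference did not hold under several other settings. Without wild-type replicate 2 it was 0.689 regions on 9 of 12 chromosomes (exact sign test, adjusted p = 0.146), and for domains of 8000 bp or more it turned to -0.099 (exact sign test, adjusted p = 0.774). Outside the central 50% it was 0.200 (exact sign test, p = 0.388).

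The nearest *crel-2* region lay at a median distance of 48647 bp from a lost domain. It was within 20 kb of 306 members, or 25.4%, and within 50 kb of 618, or 51.2%, and 313 members, or 25.9%, had none within 100 kb. It was within 1 kb of 4 members. The closest were a domain on chromosome 9 from 60794933 to 60799506, with a *crel-2* region 479 bp away, one on chromosome 8 from 31806497 to 31811061 with 751 bp, and one on chromosome 1 from 87918143 to 87926475 with 764 bp. In the first, *crel-2* replicate 1 covered 27.8% of the domain and the wild-type peaks spanned 6251 and 13706 bp, so the shared interval was only 29.7% of their joint span. Some *crel-2* regions had no base in a wild-type region, though they could still hold a peak of a single wild-type list. Such regions lay within 50 kb of 114 lost domains, or 9.44%, and of 1228 kept domains, or 39.9%. This difference was present at 12000 bp or more as well, with 13.7% and 41.5%. These *crel-2* regions and the split into lost and kept come from the same *crel-2* lists, so this is a description. It was not compared by position along the chromosome.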

How the data were processed

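H3K27me3 was profiled by ChIP-seq in 2 wild-type and 2 *crel-2* replicates. The authors mapped reads with Bowtie2, removed poorly mapped and duplicate reads with SAMtools, and used HOMER to call peaks in each replicate on its own. The deposited lists hold the start and end of peaks in bp and no signal, and the caller's settings are not given in the sources used here. The methods name build SL3.0, whereas the lists carry SL2.40 names. Input libraries and the RNA-seq table, which holds the authors' own comparison by gene, were not used here. Groups came from the sample titles.

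Regions were formed, compared and counted with Python 3.11.15, numpy 2.4.6, pandas 2.3.3 and scipy 1.17.1. The same intervals, coverage and distances were obtained with bedtools 2.31.1, and planted lists were recovered in a test on simulated data. Shares carry 95% Wilson intervals, which treat regions as independent. Domains, not samples, were compared in the sign tests, whose units are the 12 chromosomes of the same 4 libraries. Regions named are the 10 widest members, the widest of each chromosome, those nearest to the limits of the rule, those with most bases in a single *crel-2* list, the 3 longest runs and the densest 1-Mb windows. The members and lists were chosen with earlier results of these data known. Alternatives varied the width, the overlap, the form of a region and the replicates used.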

Additional observations from a re-analysis of the deposited data

How the results depend on the processing

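The number of lost domains stayed within 1.5 times of 1207 in 10 of 12 alternatives, and was 760 from 5000 bp and 246 from 8000 bp. Leaving out 1 replicate gave 1129 to 1502 lost domains and a share of 26.3% to 31.2%. The share was 31.9%, 23.8% and 16.7% from 3000, 5000 and 8000 bp, 24.99% when a peak in either *crel-2* list counted as kept, 35.6% when a *crel-2* region had to cover 50% of a kept domain, 32.8% with merged spans and 31.0% with gaps up to 1000 bp joined. The lower share of lost domains in the central 50% held in all 14 alternatives, between -22.5 and -14.8 percentage points and on 12 of 12 chromosomes in each. The difference in other wild-type regions within 50 kb passed the test in 9 of 15 alternatives. It was 0.372 with merged spans, 0.386 with joined gaps and 0.207 within 20 kb (each with an adjusted p of 0.146 from the exact sign test), 0.200 for domains outside the central 50%, a setting chosen after seeing the data, and -0.099 from 8000 bp. Leaving out 1 replicate gave 0.481 to 0.689. The causes were not tested. No paired analysis was possible because both sign tests compare domains of one set of regions built from all 4 lists, and replicate numbers name no shared plants. Depth per peak is unknown, which limits what a missing peak shows.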

Other observations

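Single lost domains between kept neighbours were rare. The 45 members with a kept wild-type region on either side spanned 5333 bp in the median. The widest of them, chosen after its values were seen, lay on chromosome 2 from 42937474 to 42954378. It spanned 16905 bp, with wild-type peaks of 18861 and 16905 bp, no base in either *crel-2* list and a *crel-2* region 1770 bp away. The opposite case, a kept wide domain between lost neighbours, was met 433 times. Of these domains 73, or 16.9%, lay wholly inside *crel-2* regions, beside 54.4% of all kept domains. The widest, on chromosome 1 from 1839807 to 1903463, spanned 63657 bp and was covered in full by both *crel-2* lists.

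When regions of every width were read in order, the longest unbroken series of lost regions was on chromosome 3 from 60194525 to 61083372, with 42 regions of which 8 were wide, followed by 39 regions with 11 wide ones on chromosome 1 from 75464303 to 76284411. In each of these stretches either *crel-2* list had 1 peak and no *crel-2* region was formed. Of all members, 961, or 79.6%, lay in series of at least 5 lost regions and 610, or 50.5%, in series of at least 10. Of all 8481 lost regions, which were 55.7% of wild-type regions, 73.2% lay in series of at least 5 and 43.6% in series of at least 10. These values were looked up after the runs of wide domains had been seen.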
